A study of Mus musculus with 20 samples.

Results

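The ovaries of FL1 mice, a line selected over many generations for large litters, were compared between estrus and diestrus. The comparison holds the 10 libraries whose titles name the FL1 line, 5 from mice in estrus and 5 from mice in diestrus, out of 20 libraries in all. The other 10 came from ctrl mice, the unselected line from the same founder population, again with 5 per stage. All animals were females aged about 77 days, and the stage was read from vaginal smears, with cornified cells alone in estrus and leukocytes alone in diestrus. Each library was made from the whole ovary of 1 mouse after fat, oviduct and tunica albuginea had been removed. Samples were taken at the same time of day. FL1 is 1 line, so selection and drift cannot be told apart where it differs from ctrl.

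Estrus in the mouse follows ovulation, when the ruptured follicles turn into new corpora lutea, while diestrus is the stage in which corpora lutea are active. Luteal and theca cells make steroids from cholesterol, which they take up from lipoproteins or synthesise, and LH from the pituitary drives much of this through its receptor. Ovulation itself needs proteases that open the follicle wall, and the wound is then filled with new matrix and blood vessels. A bulk library averages over all these cells, so fewer cells of a type and less RNA per cell cannot be told apart in any value below.

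The 10 FL1 libraries held 5991223 to 9432952 counts (median 6787039), and 25758 genes had a count in at least 1 of them. A floor of 3 counts makes up 3.18e-05% to 5.01e-05% of a library, and this floor covers counting error only. The labelled tissue was checked by markers, which were present for oocytes (Zp3 at 42 and 34.7 CPM in the stage means), granulosa cells (Foxl2 at 298 and 436 CPM) and luteal cells (Star at 2127 and 6240.4 CPM), where CPM are counts scaled by library size. The granulosa marker Amh lay at no more than 0.478 CPM of the raw total in any FL1 library, and the theca marker Insl3 had 0 counts in all of them. Why both were so low was not tested, so these values are not read as absence of their RNA. Of the defining markers of oviduct, Ovgp1 reached 1.39 and Foxj1 2.55 CPM of the raw total, and the oviduct list summed to 35.0 to 44.2 CPM. Of those of fat, Lep reached 0.29 and Adipoq 6.06 CPM of the raw total. The fat list, which holds genes that ovarian cells also express, summed to 329 to 456 CPM in estrus and 364 to 456 CPM in diestrus, and its member Fabp4 was stronger expressed in estrus (log2FC 2.08).

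In the first principal component of log2 CPM, which held 38.4% of the variance, the stages were apart. Estrus libraries lay between 17.2 and 37.5 and diestrus libraries between -36.2 and -21.7. The second component, with 12.4%, split the estrus libraries, replicates 1 and 2 at 32.1 and 17.9 and replicates 3, 4 and 5 between -24.8 and -13.9. Replicates 1 and 2 also had, among the estrus libraries, the highest summed levels of granulosa genes (10223 and 9985 CPM against 6918 to 8157 in the other 3), of oocyte genes (1701 and 1136 against 821 to 908) and of cell cycle genes (4130 and 4199 against 2712 to 3312). Their summed luteal genes were the lowest of all 10 libraries, at 21529 and 25074 CPM against 29281 to 40658 CPM in the other estrus libraries. Counts without these 2 libraries are therefore given where they differ by more than 1.5 times. Over all tested genes the mean Euclidean distance was 79.0 between and 59.8 within stages, a gap of 19.2. An exact permutation test over the 252 assignments of 5 and 5 libraries gave a one-sided p of 0.00794, the smallest this design allows.

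**Figure D1:**
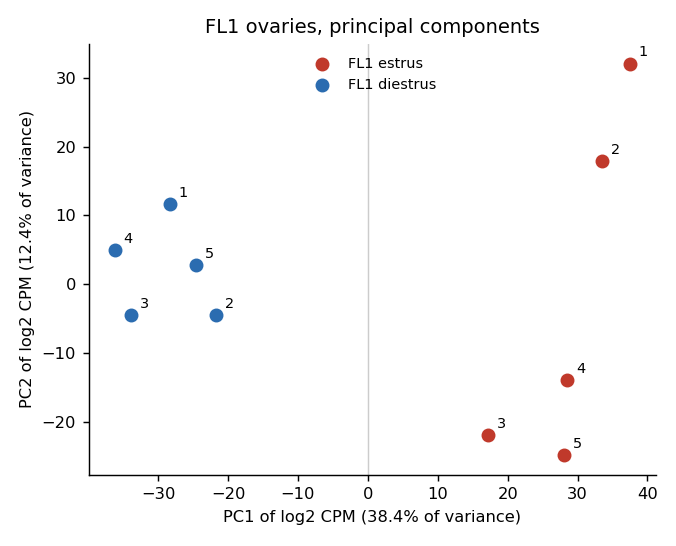
First and second principal component of log2 CPM over 13350 tested genes, 1 point per FL1 library with its replicate number, red for estrus and blue for diestrus. Estrus lies between 17.2 and 37.5 and diestrus between -36.2 and -21.7 on the first component, and estrus replicates 1 and 2 lie above the other 3 on the second.

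Of 13350 genes tested with edgeR's quasi-likelihood test, 2123 differed between the stages at an adjusted p of at most 0.05, which is 15.9%. In estrus 990 were stronger (7.42%) and 1133 weaker expressed (8.49%) than in diestrus. Changes above 2-fold were seen in 259 genes upwards and 270 downwards, and changes above 8-fold in 16 and 31. All 5 libraries of a stage lay on one side of all 5 of the other for 632 and 755 of them. Among all tested genes, called or not, this held for 12.2%, with estrus above in 5.65% and below in 6.51%. The median log2FC, always estrus minus diestrus, was 0.01 over all tested genes. Without estrus replicates 1 and 2, 1688 of 13796 tested genes were called, 810 stronger and 878 weaker. Of these, 1368 were among the 2123. Without 1 library the total called was 1582 to 2316, so counts of list members in such fits move with the total too.

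Genes of steroid synthesis that differed were mostly weaker expressed in estrus. Of 20 tested members of the list of steroidogenic enzymes, 8 fell and 2 rose (50% against 15.9% of all tested genes). The median log2FC of the list was -0.24. Hsd17b7, a 17-beta-hydroxysteroid dehydrogenase of corpora lutea that also takes part in cholesterol synthesis (chr1:169949535-169969241, minus strand, GRCm38), stood at 40.2, 41.9, 128, 42.9 and 45.1 CPM in estrus and 3288, 1989, 2531, 2892 and 2039.9 CPM in diestrus. The stages were far apart, with the highest estrus library, replicate 3, still under every diestrus library, and the log2FC was -5.41 ± 0.32 (SE, adjusted p = 1.56e-08). Cyp17a1, the enzyme that turns progestins into androgens (chr19:46667165-46673172, minus strand), stood at 10.7, 15.8, 13.8, 15.4 and 13.7 CPM in estrus and 164, 289, 190.1, 197 and 142 CPM in diestrus. No library of a stage reached the range of the other, and the log2FC was -3.83 ± 0.175 (SE, adjusted p = 1.10e-09). Star, the protein that carries cholesterol into the mitochondrion (chr8:25806555-25815982, plus strand), stood at 800.2, 1433, 3584, 1986 and 2831 CPM in estrus and 6151, 5023, 6866, 5149.7 and 8012 CPM in diestrus. Its estrus values spread widely, lowest in replicate 1, yet all 5 were below diestrus, with a log2FC of -1.56 ± 0.285 (SE, adjusted p = 0.00142).

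The next enzymes of the chain moved less. Cyp11a1, which makes pregnenolone from cholesterol, averaged 6916 ± 1786 CPM in estrus and 11903 ± 1131 CPM in diestrus (SD, n = 5 each), a log2FC of -0.79 ± 0.153 (SE) without overlap. Hsd3b1, which makes progesterone from pregnenolone, averaged 4551 ± 499 CPM in estrus and 7813 ± 774 CPM in diestrus (SD, n = 5 each), a log2FC of -0.78 ± 0.105 (SE) without overlap. Cyb5a, an electron donor of Cyp17a1, fell (log2FC -0.80), as did the aromatase gene Cyp19a1 (log2FC -1.38), the latter with overlap in diestrus replicate 1. Cyp1b1, an estrogen-metabolising cytochrome, fell (log2FC -0.78). Srd5a1, a steroid 5-alpha-reductase, and Tspo, an outer mitochondrial membrane protein, were the 2 members that rose, each by a log2FC of 0.54. Only Tspo rose without estrus replicates 1 and 2, where Srd5a1 had a log2FC of 0.48 and an adjusted p of 0.0552. Akr1c18, which inactivates progesterone in the corpus luteum at the end of its life, stood at 7092, 8919.8, 15213, 9604 and 16855 CPM in estrus and 6236, 14455, 11995, 9248 and 8609.9 CPM in diestrus. These ranges overlapped, with a log2FC of 0.19 ± 0.235 (SE, adjusted p = 0.638).

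**Figure D2:**
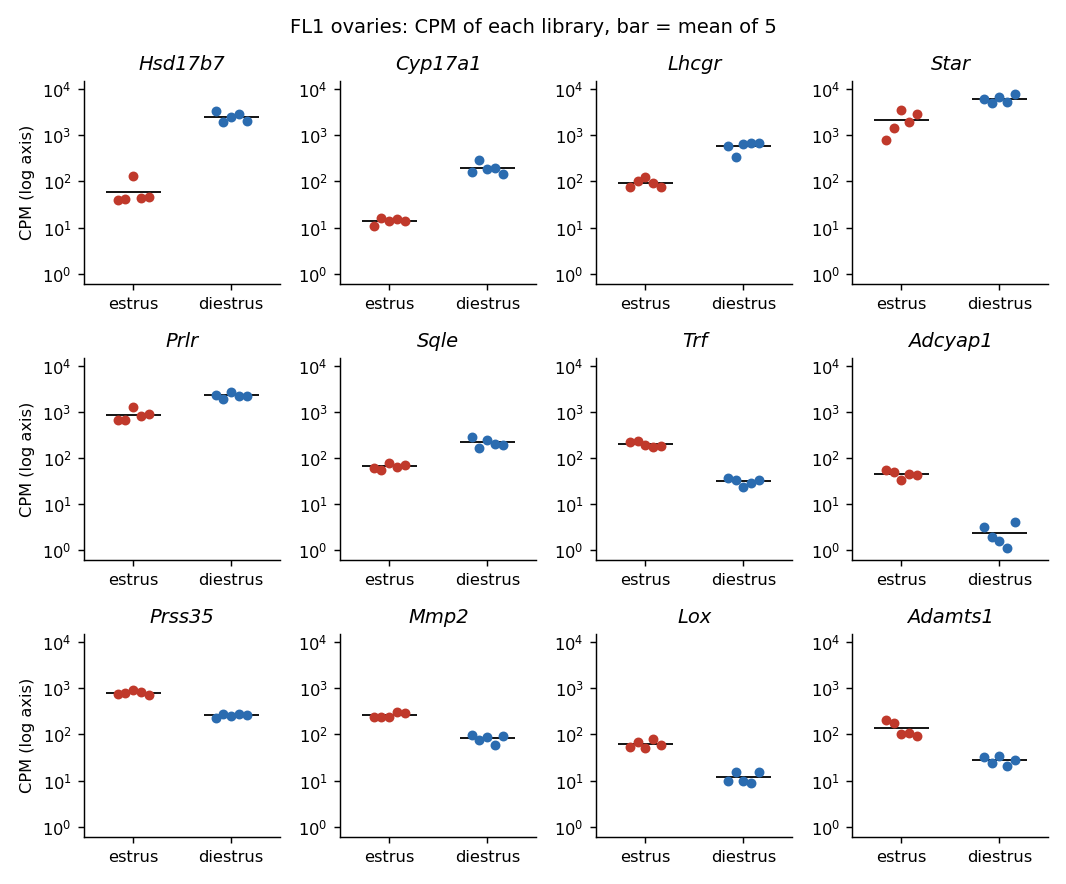
CPM of 12 genes on a log axis in the 5 estrus (red) and 5 diestrus (blue) FL1 libraries, with a bar at the mean of each stage. In the first 6 genes, from Hsd17b7 to Sqle, all estrus libraries lie under all diestrus libraries, and in the last 6, from Trf to Adamts1, above them.

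Genes of cholesterol synthesis and uptake were weaker expressed in estrus along most of the pathway. Of 34 tested members of the list of cholesterol synthesis and uptake, 25 fell and 0 rose, which is 73.5% against 15.9% of all tested genes. The median log2FC was -1.15. Members of this and the other lists were chosen with earlier results of these data known. The shares are therefore descriptions, and no list was tested as a set. Hsd17b7 also stands in the lists of steroidogenic enzymes and luteal genes, and Scarb1 in the latter. The summed level of the list was 4489 to 5874 CPM in estrus and 10468 to 14735 CPM in diestrus, so the ranges of the stages did not overlap.

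Several of these genes are switched together in other tissues by the sterol-sensing factor SREBP2. The letters just upstream of 3 members are shown, picked because a searched motif stood there. The sequences are those of RefSeq in GRCm38.p6, the 250 bases before the start of the gene read in its own direction, with the searched motif in capitals. In Hmgcs1 (chromosome 13, chr13:119690101-119690350, plus strand) the capitals mark the sterol regulatory element TCACCCCAC, whose first base lies 137 bases before the start. In Hsd17b7 (chromosome 1, chr1:169969206-169969455, minus strand) and Insig1 (chromosome 5, chr5:28071162-28071411, plus strand) they mark the E-box CACGTG, which begins 143 and 101 bases before the start. The sterol regulatory element TCACCCCAC stood in neither of these sequences.
Hmgcs1: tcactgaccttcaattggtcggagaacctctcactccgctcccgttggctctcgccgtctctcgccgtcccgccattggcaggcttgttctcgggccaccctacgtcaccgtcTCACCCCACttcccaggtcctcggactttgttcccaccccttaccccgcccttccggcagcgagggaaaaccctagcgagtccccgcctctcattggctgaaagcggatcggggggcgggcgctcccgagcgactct
Hsd17b7: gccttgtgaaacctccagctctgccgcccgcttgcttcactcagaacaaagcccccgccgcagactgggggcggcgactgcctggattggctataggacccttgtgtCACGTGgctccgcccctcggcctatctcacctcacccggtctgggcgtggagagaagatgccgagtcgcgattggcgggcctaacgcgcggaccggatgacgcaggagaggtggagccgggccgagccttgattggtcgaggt
Insig1: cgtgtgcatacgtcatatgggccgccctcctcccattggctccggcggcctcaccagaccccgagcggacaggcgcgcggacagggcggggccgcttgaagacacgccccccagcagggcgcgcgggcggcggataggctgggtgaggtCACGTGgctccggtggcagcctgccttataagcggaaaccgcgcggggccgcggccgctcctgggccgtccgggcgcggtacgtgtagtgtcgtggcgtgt

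Over windows of 250 bases before to 50 after the start, on both strands, a promoter was matched by symbol for 24 of the 34 cholesterol genes and 10194 of the tested genes. TCACCCCAC stood in 1 of the 24 (4.17%), in 0.687% of all tested genes, in 1.05% of those weaker expressed in estrus and in 0.403% of those stronger expressed. CACGTG stood in 7 of the 24 (29.2%), among them Hsd17b7 and Insig1, against 11.7% of all tested genes, 12.5% of the weaker and 8.87% of the stronger expressed. The motif CAAGGTCA of NR5A factors stood in 1.27% of all tested genes, 1.87% of the weaker and 1.34% of the stronger expressed, and the cAMP response element TGACGTCA in 3.46%, 2.34% and 2.55%. For the AP-1 motif TGANTCA the shares were 6.2%, 7.02% and 8.6%. None of the 14 matched steroidogenic genes held the NR5A motif or the cAMP response element. A match describes these letters and was not tested as a binding site.

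Sqle, the squalene epoxidase (chr15:59315077-59331192, plus strand), stood at 61.8, 53.8, 77.3, 63.9 and 71 CPM in estrus and 287, 166, 240.4, 204 and 194 CPM in diestrus. Its stages were apart, with a log2FC of -1.73 ± 0.136 (SE, adjusted p = 3.82e-07). Hmgcs1, which makes HMG-CoA early in the pathway, stood at 248, 294, 541, 368 and 344 CPM in estrus and 1247, 819.7, 1063, 754 and 961 CPM in diestrus. All estrus libraries were below diestrus here too, with a log2FC of -1.43 ± 0.178 (SE, adjusted p = 4.60e-05).

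Between Hmgcs1 and the last steps, log2FC were -1.82 in Lss, -1.65 in Fdps, -1.26 in Msmo1, -1.27 in Cyp51 and -1.18 in Dhcr7. Mvk and Ebp, which act in the same chain, had log2FC of -0.42 and -0.32 and did not pass the test. Called genes of cholesterol uptake, transport and storage moved in the same direction. Scarb1, the receptor of high density lipoprotein, averaged 950.3 ± 186 CPM in estrus and 2152 ± 338 CPM in diestrus (SD, n = 5 each), a log2FC of -1.18 ± 0.138 (SE). Stard4, a cytosolic cholesterol carrier, fell (log2FC -1.43). So did Soat1 (log2FC -1.01), which esterifies cholesterol, and Npc2 (log2FC -0.84), a lysosomal sterol carrier, each without overlap. Insig1, the sterol sensor that holds back SREBP, fell as well, from 22.8 to 9.53 CPM on average, a log2FC of -1.25 ± 0.185 (SE). Srebf2, the gene of SREBP2, had a log2FC of -0.33 ± 0.105 (SE, adjusted p = 0.0416), and lost its call in 7 of the 10 fits that leave out 1 library. The cholesterol exporter Abca1 had a log2FC of 0.23 ± 0.112 (SE, adjusted p = 0.183). Fdps and Dhcr7 share their 3' ends with other annotated genes.

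**Figure D3:**
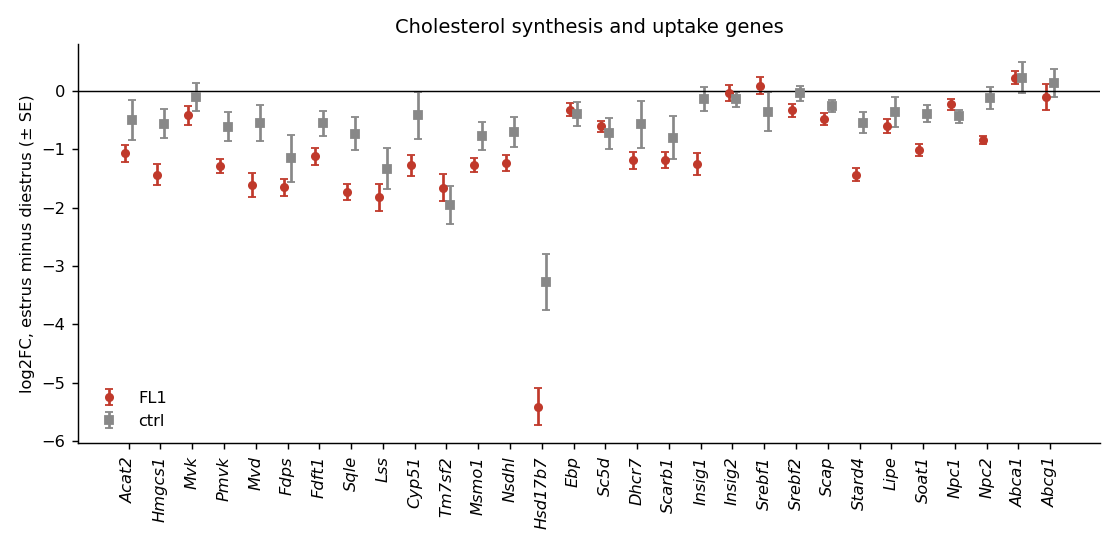
Log2FC (estrus minus diestrus) ± SE of 30 genes of cholesterol synthesis and uptake that were tested in both lines, red circles for FL1 and grey squares for ctrl. In FL1 nearly all points lie under 0, Hsd17b7 lowest at -5.41, with Srebf1 and Abca1 above 0, and the ctrl points lie nearer to 0 in 22 of the 30 genes.

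Receptors of luteal hormones were weaker expressed in estrus. Lhcgr, the receptor of LH (chr17:88716481-88791990, minus strand), stood at 77.6, 104, 123, 92.5 and 77.3 CPM in estrus and 595, 342, 638, 682 and 697 CPM in diestrus. Diestrus replicate 2 was well under the other diestrus libraries, all estrus libraries were lower still, and the log2FC was -2.64 ± 0.178 (SE, adjusted p = 6.30e-08). Prlr, the prolactin receptor, stood at 658, 677, 1252, 819 and 894 CPM in estrus and 2286, 1926, 2652, 2242 and 2225 CPM in diestrus. Its stages did not overlap, with a log2FC of -1.40 ± 0.15 (SE, adjusted p = 1.02e-05). Ptgfr, the receptor through which prostaglandin F2-alpha ends luteal life, averaged 933 ± 293 CPM in estrus and 1697 ± 238 CPM in diestrus (SD, n = 5 each), a log2FC of -0.86 ± 0.173 (SE) without overlap. Of 20 tested luteal genes, 10 fell and 4 rose (70% against 15.9% of all tested genes), with a median log2FC of -0.58. Each that fell is also counted in another list, Star, Cyp11a1, Hsd3b1 and Hsd17b7 as steroidogenic enzymes and Scarb1 as a cholesterol gene. Lhcgr, Prlr and Ptgfr are counted as hormone receptors, Sfrp4 in the Wnt pathway and Timp3 as a protease inhibitor. The counts of these lists are therefore not independent. The Wnt antagonist Sfrp4 fell (log2FC -1.13), again without overlap. The members that rose were the membrane protein Parm1 (0.81), the cell cycle inhibitor Cdkn1a (0.96), the lipid droplet coat Plin2 (0.76) and the angiotensin receptor Agtr2 (2.11). Of 24 tested hormone receptors over all classes, 5 fell and 1 rose (25% against 15.9% of all tested genes). Besides the 3 named, the insulin receptor Insr (log2FC -0.66) and Igf1r (log2FC -0.62) fell, while the FSH receptor Fshr had a log2FC of -0.57 ± 0.198 (SE, adjusted p = 0.0618), or -0.78 (adjusted p = 0.0223) without estrus replicates 1 and 2.

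The genes that fell most clearly were only in part steroid genes. Bace2, an aspartyl protease related to beta-secretase (chr16:97356742-97442936, plus strand), stood at 20.9, 17.7, 28.5, 18.2 and 20.1 CPM in estrus and 555, 218, 479, 382 and 317 CPM in diestrus. The stages were apart, with diestrus replicate 2 the lowest of its stage, and the log2FC was -4.20 ± 0.224 (SE, adjusted p = 5.90e-09). Bpifb6, of a family of lipid-binding proteins, stood at 9.42, 12, 19.2, 11.2 and 12.9 CPM in estrus and 335, 142, 303, 234 and 170.1 CPM in diestrus, again lowest in diestrus replicate 2 among its stage, with a log2FC of -4.18 ± 0.242 (SE, adjusted p = 1.50e-08). The tight junction gene Cldn18 stood at 12.1, 14.9, 11.4, 6.81 and 8.79 CPM in estrus and 176, 196, 162, 233 and 79.3 CPM in diestrus, a log2FC of -3.98 ± 0.254 (SE, adjusted p = 3.22e-08) without overlap. In these 3 genes no estrus library reached 30 CPM. Aatk, a kinase gene, fell (log2FC -3.93), as did Hemk1 (log2FC -2.46), a methyltransferase gene. The adhesion gene Tns3 fell (log2FC -1.34). Genes that were almost silent in estrus were Pmch, the precursor of melanin-concentrating hormone, Amdhd1, of histidine breakdown, the potassium channel Kcnj16 and the Ras activator Rasgrp1. Pmch stood at 0.442, 0, 0.525, 0.148 and 0.107 CPM in estrus and 24, 2.75, 6.94, 10.5 and 9.18 CPM in diestrus. Diestrus replicate 1 was highest, the stages did not overlap, and the fitted log2FC was -5.30 ± 0.643 (SE, adjusted p = 3.61e-05). Amdhd1 averaged 0.661 and 24.6 CPM, Kcnj16 1.33 and 34.1 CPM, and Rasgrp1 0.744 and 12.2 CPM in estrus and diestrus. The log2FC of Rasgrp1 was -3.98 ± 0.47 (SE) and moved to -4.71 (adjusted p = 9.50e-06) without estrus replicate 3. The uncharacterised 5330417C22Rik, another of the 12 genes with the smallest p, fell as well, without overlap. Pmch, Cldn18, Aatk and 5330417C22Rik overlap a gene on the other strand, Bace2, Aatk and 5330417C22Rik one on their own strand, and reads of such pairs cannot be told apart where the counting ignored strand.

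Among the genes stronger expressed in estrus, those with the smallest p included Trf, Prss35, Adcyap1, Tinagl1 and Ren1. Trf, the iron carrier transferrin (chr9:103204001-103230444, minus strand), stood at 226, 228, 190.1, 176 and 184 CPM in estrus and 36.3, 33.9, 23.2, 28.7 and 33.7 CPM in diestrus. Every estrus library was over every diestrus library, and the log2FC was 2.68 ± 0.123 (SE, adjusted p = 1.10e-09). Prss35, a secreted serine protease-like protein (chr9:86743649-86758443, plus strand), stood at 752, 789.5, 893, 811 and 728 CPM in estrus and 229, 271, 251, 273.9 and 261.2 CPM in diestrus. The libraries of a stage lay close together, with a log2FC of 1.63 ± 0.0829 (SE, adjusted p = 4.00e-09). Adcyap1, the precursor of the neuropeptide PACAP, stood at 55.8, 48.4, 32.9, 44.7 and 42.2 CPM in estrus and 3.16, 1.97, 1.58, 1.13 and 4.01 CPM in diestrus, a log2FC of 4.25 ± 0.246 (SE, adjusted p = 1.50e-08) without overlap. Ren1, the gene of renin, was nearly absent in diestrus. It stood at 15, 21.3, 17.3, 28.8 and 22.4 CPM in estrus and 1.43, 0.393, 0.631, 0.851 and 1.17 CPM in diestrus, and the log2FC was 4.54 ± 0.291 (SE, adjusted p = 3.24e-08). The matrix glycoprotein gene Tinagl1 averaged 155 ± 29.8 CPM in estrus and 36.9 ± 3.87 CPM in diestrus (SD, n = 5 each), a log2FC of 2.07 ± 0.129 (SE).

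Glul, the glutamine synthetase, averaged 495 ± 55 CPM in estrus and 191 ± 20 CPM in diestrus (SD, n = 5 each), a log2FC of 1.37 ± 0.0975 (SE), and its 3' end is shared with 2 other annotated genes. Of the other genes with the smallest p, the proprotein convertase Pcsk5 had a log2FC of 1.63, the adhesion molecule Ncam1 1.37, the galectin Lgals1 1.33 and the chromatin remodeler Smarca1 1.22, none with overlap. Among non-overlapping genes of at least 10 CPM in estrus, the largest log2FC belonged to genes of low level. Nts, the precursor of neurotensin, stood at 18.4, 25.3, 5.04, 13.5 and 16.5 CPM in estrus and 1, 0.262, 0, 0.284 and 0.167 CPM in diestrus. It was over every diestrus library even in estrus replicate 3, its lowest, and the fitted log2FC was 5.41 ± 0.538 (SE), or 6.28 (adjusted p = 6.25e-06) without diestrus replicate 1. Ly6k averaged 12.7 and 0.439 CPM, a log2FC of 4.79 ± 0.498 (SE), and the Wnt-binding Sfrp2 17.6 and 1.75 CPM, a log2FC of 3.34 ± 0.465 (SE). Serpina3n, a serine protease inhibitor, averaged 30.8 and 3.57 CPM, a log2FC of 3.17 ± 0.49 (SE), or 3.85 (adjusted p = 5.94e-05) without diestrus replicate 5. Trf and Glul overlap a gene on their own strand, and Ly6k, Sfrp2, Ncam1 and Glul one on the other strand.

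Called genes of ovulation, of matrix breakdown and of structural matrix were mostly stronger expressed in estrus. Of 30 tested genes of ovulation and cumulus expansion, 10 rose and 5 fell (50% against 15.9% of all tested genes). Adamts1, a protease that cleaves versican in the ovulating follicle, stood at 209, 174, 103, 105 and 93.3 CPM in estrus and 32.7, 24.5, 34.2, 21.1 and 27.7 CPM in diestrus. Estrus replicates 1 and 2 were highest, all estrus libraries were over diestrus, and the log2FC was 2.28 ± 0.216 (SE, adjusted p = 2.76e-06). Its relative Adamts4 rose by a log2FC of 1.68, versican (Vcan) by 1.08, the plasminogen activator Plat by 1.57, the sphingosine kinase Sphk1 by 1.66 and the transcription factor Runx1 by 1.12. Edn2, the endothelin of follicle rupture, stood at 15.6, 14.3, 2.42, 5.62 and 5.36 CPM in estrus and 0.574, 6.55, 0.473, 0.142 and 1 CPM in diestrus. Estrus replicates 1 and 2 were high and diestrus replicate 2 overlapped the estrus range, so its log2FC of 2.23 ± 0.693 (SE, adjusted p = 0.0374) became 3.96 (adjusted p = 6.38e-04) without that diestrus library and 1.30 (adjusted p = 0.292) without estrus replicates 1 and 2. The hyaluronan-binding Tnfaip6 averaged 6.92 and 2.39 CPM, a log2FC of 1.55 ± 0.41 (SE). Genes that the LH surge is known to induce, Ptgs2, Has2, Areg and Ereg, were too low to be tested. The transcription factor Runx2 fell (log2FC -1.15), as did the receptor Lrp8 (log2FC -1.29).

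Of 35 tested matrix proteases and inhibitors, 15 rose and 3 fell (51.4% against 15.9% of all tested genes). The summed level was 6200.5 to 7168 CPM in estrus and 5145 to 5958 CPM in diestrus. Mmp2, a gelatinase, stood at 239, 239, 233, 303 and 295 CPM in estrus and 95, 73.9, 86, 59.3 and 93.8 CPM in diestrus, with a log2FC of 1.68 ± 0.125 (SE, adjusted p = 2.19e-07). Lox, which cross-links collagen, stood at 54.5, 66.7, 51.9, 79.9 and 59.1 CPM in estrus and 9.9, 15.6, 9.78, 8.79 and 15.2 CPM in diestrus, with a log2FC of 2.39 ± 0.172 (SE, adjusted p = 1.44e-07). In both genes every estrus library was higher. Mmp19 rose by a log2FC of 1.34, Mmp11 by 0.98 and the lysyl oxidase relative Loxl2 by 1.20. The inhibitor Timp1 averaged 846 ± 226 CPM in estrus and 344 ± 273.4 CPM in diestrus (SD, n = 5 each) with overlap, and its log2FC of 1.29 ± 0.38 (SE) lost its call in 5 of the 10 fits that leave out 1 library, while Timp3 fell (log2FC -0.50). Of 40 tested collagens and structural matrix genes, 18 rose and 2 fell (50%), with a median log2FC of 0.31. Col3a1, of the fibrillar collagens, averaged 1360.5 ± 312 CPM in estrus and 575 ± 79.5 CPM in diestrus (SD, n = 5 each), a log2FC of 1.24 ± 0.14 (SE), and Col1a1 757 ± 118 CPM in estrus and 377 ± 77.4 CPM in diestrus (SD, n = 5 each), a log2FC of 1.00 ± 0.134 (SE). Col5a2 rose by a log2FC of 1.29, periostin (Postn) by 1.16 and fibronectin (Fn1) by 0.94. Of 18 tested smooth muscle genes, 7 rose and 1 fell (44.4%).

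**Figure D4:**
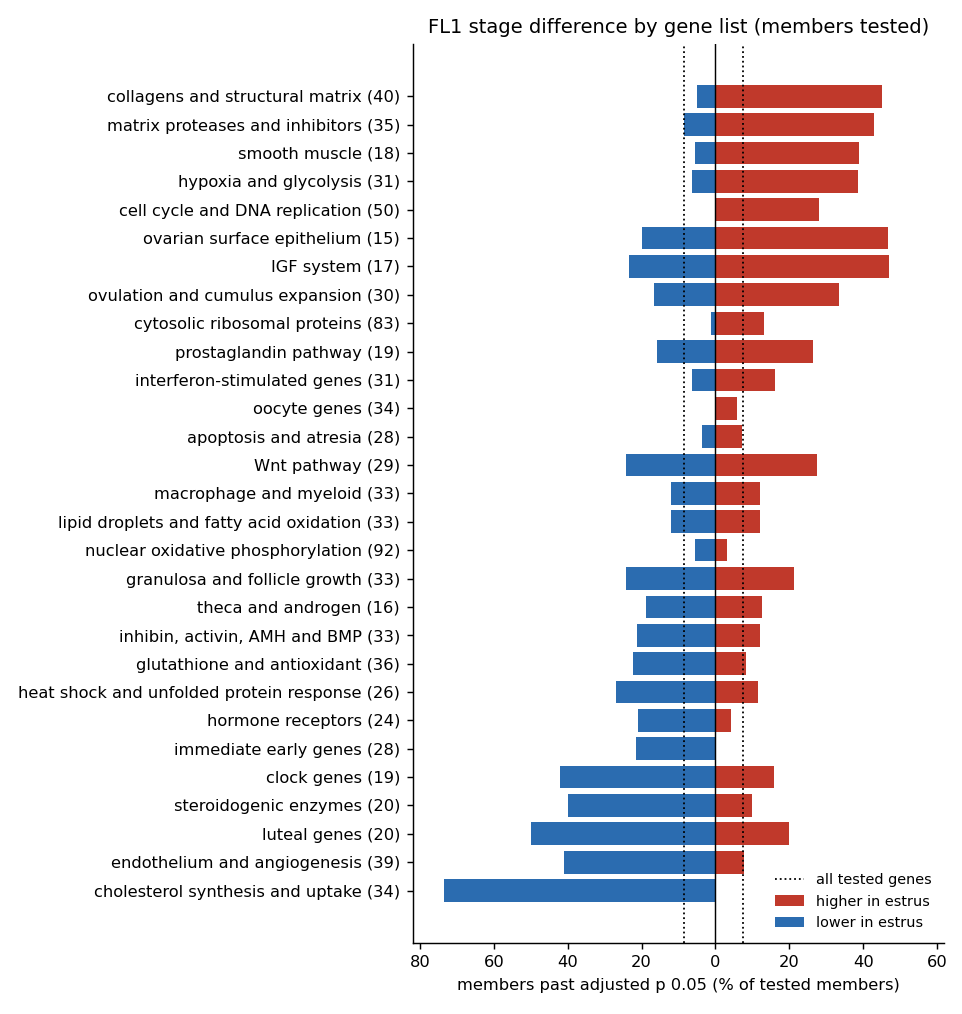
Share of the tested members of each gene list that passed an adjusted p of 0.05, to the right in red for genes stronger and to the left in blue for genes weaker expressed in estrus, with the number of tested members in brackets and dotted lines at the shares over all tested genes (7.42% and 8.49%). Cholesterol genes reach farthest to the left, with 25 of 34 members, and collagens show 18 of 40 members to the right. Members were chosen with earlier results of these data known, and no list was tested as a set.

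The IGF system moved in both directions. Of 17 tested members, 8 rose and 4 fell (70.6% against 15.9% of all tested genes). Without estrus replicates 1 and 2, 5 rose, in a fit where 810 of all 13796 tested genes rose. Pappa2, a protease that frees IGF from its binding proteins, stood at 6.77, 10.1, 7.35, 9.17 and 5.14 CPM in estrus and 0, 0, 0, 0 and 0 CPM in diestrus. It had 0 counts in diestrus against 293 in estrus, so it was at least 88.6-fold higher in estrus, with 3 counts over the whole diestrus group as the floor. Pappa, the sister protease, stood at 8.54, 6.16, 7.04, 4.59 and 6.21 CPM in estrus and 37.4, 21.4, 29.5, 47.2 and 21.5 CPM in diestrus, the reverse order, with a log2FC of -2.27 ± 0.233 (SE, adjusted p = 6.18e-06). Igfbp4, an IGF-binding protein that Pappa cleaves, averaged 934 ± 187 CPM in estrus and 538 ± 70.9 CPM in diestrus (SD, n = 5 each), a log2FC of 0.79 ± 0.128 (SE), and Igfbp2 rose by 1.04. In the Wnt pathway 8 of 29 tested members rose and 7 fell (51.7%). The receptor Fzd1 rose by a log2FC of 2.28, the ligand Wnt6 by 1.59, the antagonist Sfrp1 by 0.81 and the target Axin2 by 0.91, whereas the receptor Fzd4 fell (log2FC -0.87).

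Follicle genes were divided. Of 33 tested genes of granulosa cells and follicle growth, 7 rose and 8 fell (45.5% against 15.9% of all tested genes). The number of these that fell was 5 without estrus replicate 5. Foxl2, a granulosa transcription factor, fell (log2FC -0.55), as did the gap junction gene Gja1 (log2FC -0.53) and the transcription factor Gata6 (log2FC -0.54). Inhba, the activin and inhibin subunit, averaged 413 ± 106 CPM in estrus and 722 ± 257 CPM in diestrus (SD, n = 5 each) with overlap, and its log2FC of -0.81 ± 0.222 (SE) lost its call in 3 of the 10 fits that leave out 1 library. Kctd14 rose by a log2FC of 1.02, the anti-Müllerian hormone receptor Amhr2 by 0.53 and the secreted Dlk1 by 2.04, from 3.04 to 12.7 CPM. Of 33 tested members of the inhibin, activin, AMH and BMP list, 7 fell and 4 rose (33.3%). The signal carrier Smad1 (log2FC -0.87) and the receptor Tgfbr1 (log2FC -0.90) fell, and the activin antagonist Fstl3 rose by 1.09. The number that fell was 3 without estrus replicate 5 and also without diestrus replicate 4 or 5, and 4 without estrus replicate 3 or 4. Theca genes apart from Cyp17a1 and Lhcgr included the retinoic acid enzyme Aldh1a2, which rose by 1.92.

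Genes of blood vessels that differed were mostly weaker expressed in estrus. Of 39 tested genes of endothelium and angiogenesis, 16 fell and 3 rose (48.7% against 15.9% of all tested genes). The median log2FC was -0.33, and the summed level was 1328 to 1485 CPM in estrus and 1639 to 1844 CPM in diestrus. Kdr, the main receptor of VEGF, stood at 80.4, 103, 109, 94.7 and 102 CPM in estrus and 189, 125, 178, 179 and 172 CPM in diestrus. Diestrus replicate 2 was far below the other diestrus libraries, no estrus library reached it, and the log2FC was -0.79 ± 0.111 (SE, adjusted p = 1.44e-04). Flt1, the other VEGF receptor, fell (log2FC -1.10), as did the endothelial markers Pecam1 (log2FC -0.75) and Cdh5 (log2FC -0.59) and the vessel-stabilising ligand Angpt1 (log2FC -1.14). Vegfa itself had a log2FC of -0.58 ± 0.184 (SE), which kept its call in 2 of the 10 fits that leave out 1 library. Apln, the peptide apelin of growing vessel tips, rose and stood at 42.5, 43.7, 47.6, 42.3 and 27.9 CPM in estrus and 15.5, 14, 15.8, 16.2 and 18.9 CPM in diestrus, a log2FC of 1.34 ± 0.145 (SE, adjusted p = 1.07e-05). The lymphatic and fibroblast marker Pdpn rose by 0.84 and Nrp2 by 0.41, Nrp2 losing its call in 4 of 10 fits. Without estrus replicates 1 and 2, 9 vessel genes fell, in a fit where 878 of all 13796 tested genes fell. Red blood cell genes moved the same way. Of 7 tested, 4 fell and 0 rose (57.1%). Their summed level was 928 to 1751 CPM in estrus and 1319 to 3588 CPM in diestrus. Hbb-bs, a beta-globin, averaged 676 ± 189.6 CPM in estrus and 1414 ± 429 CPM in diestrus (SD, n = 5 each) and Alas2, of heme synthesis, 11 ± 3.03 CPM in estrus and 19.7 ± 7.52 CPM in diestrus (SD, n = 5 each). Of these genes 2 fell without estrus replicate 3 or 4 or diestrus replicate 1 or 3. The part of blood content in the vessel genes was not tested.

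Of 33 tested macrophage and myeloid genes, 4 rose and 4 fell (24.2% against 15.9% of all tested genes). The defining markers Adgre1 and Csf1r had log2FC of -0.09 and -0.09 without passing the test. The genes that fell, which present antigen, were H2-Aa (log2FC -0.76), H2-Eb1 (log2FC -0.81), H2-Ab1 and Cd74. None of the 4 was called without estrus replicates 1 and 2, and 2 were without estrus replicate 2 or 4 or diestrus replicate 1 or 2. Those that rose were the chemokines Ccl2 (2.23) and Ccl6 (1.32), the galectin Lgals3 (0.87) and Folr2 (1.84). Of the neutrophil and lymphocyte lists 2 and 5 members could be tested. By edgeR 0 passed, with 0 and 1 at an unadjusted p under 0.05, and by DESeq2 1 neutrophil marker passed.

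Genes of dividing cells and of oocytes had mostly positive log2FC. Of 50 tested cell cycle genes, 14 rose, 0 fell and 47 had a positive log2FC, with a median of 0.41. The share called was 28% against 15.9% of all tested genes. The mitotic kinase Plk1 had a log2FC of 0.79 ± 0.146 (SE), the thymidylate synthase Tyms 0.84 ± 0.172 (SE) and Hmmr 0.77 ± 0.198 (SE). The number that rose was 4 without estrus replicates 1 and 2, 9 without either of them alone, 8 without diestrus replicate 3 and 26 without estrus replicate 3. For comparison, 810 of all 13796 tested genes rose without estrus replicates 1 and 2. Of 34 tested oocyte genes, 30 had a positive log2FC, with a median of 0.38, but 2 passed, which is 5.88% against 15.9% of all tested genes. Gdf9, an oocyte-secreted growth factor, stood at 145, 76.8, 52.6, 50 and 50.7 CPM in estrus and 61.8, 45.9, 46.5, 45.8 and 34.2 CPM in diestrus. Its ranges overlapped and estrus replicate 1 was far above the rest, with a log2FC of 0.67 ± 0.255 (SE, adjusted p = 0.0855). The members that passed were Bmp15, another such factor (0.81), which lost its call in 5 of 10 fits, and the deubiquitinase Uchl1 (0.80), which is not confined to oocytes. Without estrus replicates 1 and 2, whose summed oocyte genes were the highest, 1 rose, Bmp15 had a log2FC of 0.48 (adjusted p = 0.177), Gdf9 of 0.13 (adjusted p = 0.641) and Zp3 of -0.15 (adjusted p = 0.591).

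The tunica albuginea, which lies under the surface epithelium, had been removed from these ovaries. Of 15 tested genes of the ovarian surface epithelium, 7 rose and 3 fell (66.7% against 15.9% of all tested genes). Without estrus replicates 1 and 2, 4 rose, in a fit where 810 of all 13796 tested genes rose. Krt7 stood at 20.8, 30.4, 12.6, 16.6 and 14.5 CPM in estrus and 5.31, 7.73, 6.47, 3.83 and 10.7 CPM in diestrus, a log2FC of 1.47 ± 0.275 (SE, adjusted p = 0.00161) without overlap. Krt19 and the adhesion molecule Epcam rose by 1.22 and 1.22. Upk3b, a defining marker, had a log2FC of 0.71 ± 0.184 (SE, adjusted p = 0.0142), or 0.41 (adjusted p = 0.115) without those 2 libraries. The summed level of the list was lower in estrus, 949 to 1137 CPM in estrus and 1287 to 1444 CPM in diestrus, and its most abundant gene, the retinaldehyde dehydrogenase Aldh1a1, fell (log2FC -0.57). The 3' end of Aldh1a1 is shared with Aldh1a7. The stem cell marker Lgr5 fell (log2FC -0.78).

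Clock genes differed between ovaries taken at the same time of day. Of 19 tested members, 8 fell and 3 rose (57.9% against 15.9% of all tested genes). The median log2FC was -0.50. Without estrus replicates 1 and 2, 5 fell, in a fit where 878 of all 13796 tested genes fell. Dbp, an output gene of the clock, stood at 23.1, 28.4, 68.5, 48.2 and 69.5 CPM in estrus and 140.0, 111, 105, 97.2 and 121 CPM in diestrus. Estrus replicates 3 and 5 were nearest to diestrus without reaching it, and the log2FC was -1.26 ± 0.236 (SE, adjusted p = 0.00161). Per2, a repressor of the clock, averaged 3.53 ± 1.88 CPM in estrus and 13.8 ± 2.33 CPM in diestrus (SD, n = 5 each), a log2FC of -1.93 ± 0.286 (SE), and Bhlhe41 8.99 ± 3.64 CPM in estrus and 25.4 ± 3.15 CPM in diestrus (SD, n = 5 each), a log2FC of -1.49 ± 0.223 (SE). Tef, a relative of Dbp, fell (log2FC -0.87). The members that rose were Nfil3, which competes with Dbp for the same sites (1.01), and the activators Arntl (0.77) and Npas2 (0.98). Arntl lost its call in 4 and Npas2 in 7 of the 10 fits that leave out 1 library, and Nr1d1, with a log2FC of -0.64, in 4. The number that rose was 1 without estrus replicate 4 or diestrus replicate 1.

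In metabolism, 12 of 31 tested genes of hypoxia and glycolysis rose and 2 fell (45.2% against 15.9% of all tested genes). Ldha, the lactate dehydrogenase, averaged 275 ± 55.7 CPM in estrus and 149.9 ± 16.1 CPM in diestrus (SD, n = 5 each), a log2FC of 0.87 ± 0.125 (SE), the glucose transporter Slc2a1 had a log2FC of 0.74 and the pyruvate kinase Pkm 0.55. Ldha and Pkm share their 3' ends with 10 and 5 other annotated genes. Nuclear genes of oxidative phosphorylation moved little, 3 of 92 up and 5 down, which is 8.7% against 15.9% of all tested genes. Of 36 tested antioxidant genes, 8 fell and 3 rose (30.6%). Gpx1, a glutathione peroxidase, averaged 959.5 ± 176 CPM in estrus and 1726 ± 425 CPM in diestrus (SD, n = 5 each), a log2FC of -0.85 ± 0.154 (SE), and catalase (Cat) fell (log2FC -1.16). Among 33 tested genes of lipid droplets and fatty acid oxidation, 4 rose and 4 fell (24.2%), among them Dgat1 (log2FC -1.09), of triglyceride synthesis. Of 26 tested genes of heat shock and the unfolded protein response, 7 fell and 3 rose (38.5%). Hsph1, a heat shock chaperone, fell (log2FC -0.74), and the number that fell was 4 without diestrus replicate 3 or estrus replicate 4. Of 28 tested immediate early genes, 6 fell and 0 rose (21.4% against 15.9% of all tested genes). Among those that fell were the transcription factor Egr1 (log2FC -0.74) and the phosphatase Dusp1 (log2FC -0.96). Without estrus replicates 1 and 2, 2 fell, neither Egr1 nor Dusp1 among those called. In that fit 878 of all 13796 tested genes fell. Ribosomal protein genes rose in 11 and fell in 1 of 83 tested, 14.5% against 15.9% of all tested genes. A positive log2FC was seen in 74 of the 83, with a median of 0.23. Without estrus replicates 1 and 2, 5 of these genes rose, in a fit where 810 of all 13796 tested genes rose. Leaving out 1 library gave 4 (diestrus replicate 3) to 22 (estrus replicate 3) that rose.

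Of 19 tested prostaglandin genes 5 rose and 3 fell (42.1% against 15.9% of all tested genes), and of 16 theca genes 2 rose and 3 fell (31.2%). The theca genes that fell, Cyp17a1, Lhcgr and Cyp11a1, are counted in other lists too. Of 31 interferon-stimulated genes 5 rose and 2 fell (22.6%), and of 28 apoptosis genes 2 rose and 1 fell (10.7%). Of 4 tested oviduct markers 0 passed by edgeR or DESeq2, with 0 at an unadjusted p under 0.05. Of 8 fat markers 1 rose (12.5%), the fatty acid carrier Fabp4 with a log2FC of 2.08 ± 0.34 (SE), and of 7 mitochondrially encoded genes 2 fell (28.6%).

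The same stages were then compared in ctrl to see where FL1 differs. In ctrl 380 of 13334 tested genes were called (2.85%), 238 stronger (1.78%) and 142 weaker expressed (1.06%) in estrus. The ctrl libraries varied more, with a biological coefficient of variation of 0.242 against 0.173 in FL1. Estrus replicate 5 of ctrl stood apart, and without it 516 genes were called (3.81%; 2.09% stronger and 1.72% weaker) at a coefficient of 0.220. It was 243 without ctrl estrus replicate 2, 189 without 4, and 235, 223 and 176 without ctrl diestrus replicates 2, 3 and 4. The mean distance between stages exceeded that within stages by 9.83 in ctrl (exact one-sided permutation test, p = 0.00794) against 19.2 in FL1. The 2 comparisons share no library. Of the 2123 genes called in FL1, 2073 were tested in ctrl, 1712 of them had the same sign there, 237 were called in the same direction and 1 in the opposite direction. The genes called in both made up 11.2% of the FL1 and 62.6% of the ctrl calls. These counts come from a separate fit of each line and depend on the fit. In 1 fit of all 20 libraries 1520 genes were called in FL1 and 909 in ctrl, and DESeq2 called 2422 and 771.

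The leading genes had the same sign in ctrl. Hsd17b7 averaged 63.9 ± 17.3 CPM in estrus and 616 ± 378 CPM in diestrus in ctrl (SD, n = 5 each), a log2FC of -3.27 ± 0.481 (SE), and the difference between the lines was -2.14 ± 0.584 (SE, adjusted p = 0.142 for the line-by-stage interaction). Cyp17a1 had a log2FC of -5.02 ± 0.714 (SE) in ctrl, Lhcgr -1.75 ± 0.337 (SE), Trf 2.46 ± 0.225 (SE), Adcyap1 5.96 ± 0.464 (SE) and Mmp2 1.75 ± 0.266 (SE). The list of cholesterol genes had a median log2FC of -0.50 in ctrl with 2 of 33 tested members called lower, against -1.15 and 25 of 34 in FL1. The ctrl libraries were split in the summed level of this list. Ctrl estrus replicates 1 to 4 held 4306 to 6045 CPM and replicate 5 held 8520. Ctrl diestrus replicates 2 to 4 held 9426 to 12319 CPM, but replicates 1 and 5 only 6152 and 6051. By edgeR 0 of the list's members passed the interaction test, with 11 at an unadjusted p under 0.05. Hmgcs1 stood at -0.87 ± 0.335 (SE, adjusted p = 0.298) and Soat1 at -0.62 ± 0.178 (SE, adjusted p = 0.163). The endothelial list had a median of -0.07 in ctrl and -0.33 in FL1, the clock list -0.16 and -0.50, and the surface epithelium list -0.01 and 0.67, again with 0 members past edgeR's interaction test and 10, 6 and 9 at an unadjusted p under 0.05. These differences between the lines are thus descriptions and were not shown by edgeR's test of single genes. DESeq2 and voom called more interaction genes, 148 and 31, and which of them belong to these lists is not given here.

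The interaction test over all 20 libraries called 8 of 14154 genes (0.0565%), 3 positive (0.0212%) and 5 negative (0.0353%), with 1654 at an unadjusted p under 0.05. Leaving out 1 library gave 0 to 15, with 0 without FL1 estrus replicate 4 or 5, FL1 diestrus replicate 3 or 4, ctrl estrus replicate 3 or ctrl diestrus replicate 4. Slc30a1, a zinc exporter, averaged 35.1 ± 5.6 CPM in estrus and 74 ± 14.5 CPM in diestrus in FL1 and 41.5 ± 9.48 CPM in estrus and 39.6 ± 3.59 CPM in diestrus in ctrl (SD, n = 5 each). All FL1 diestrus libraries were over all others, with an interaction of -1.14 ± 0.21 (SE, adjusted p = 0.036). Klf3, a transcriptional repressor, averaged 88.3 ± 13.6 CPM in estrus and 159 ± 11.3 CPM in diestrus in FL1 and 115 ± 16.3 CPM in estrus and 107 ± 12.5 CPM in diestrus in ctrl (SD, n = 5 each), an interaction of -0.94 ± 0.162 (SE, adjusted p = 0.0328). The kinase Taok1 (log2FC -0.45) and the phospholipase Plcb4 (log2FC -0.54) fell in FL1 and had log2FC of 0.22 ± 0.0973 and 0.43 ± 0.138 (SE) in ctrl. Tns4 behaved likewise, at -1.10 in FL1 and 1.58 ± 0.309 (SE) in ctrl, but lost its FL1 call in 5 of 10 fits. Echdc2, of a family of enoyl-CoA hydratases, rose by 1.63 in FL1 and had a log2FC of 0.48 ± 0.158 (SE) in ctrl, and Olfml2b, an extracellular matrix protein, 1.06 and -0.27 ± 0.137 (SE). Gm15866, an antisense RNA, showed its difference in ctrl, where estrus averaged 0.383 CPM against 3.59 CPM in diestrus, while FL1 averaged 3.82 ± 1.32 CPM in estrus and 4.21 ± 1.96 CPM in diestrus (SD, n = 5 each).

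**Figure D5:**
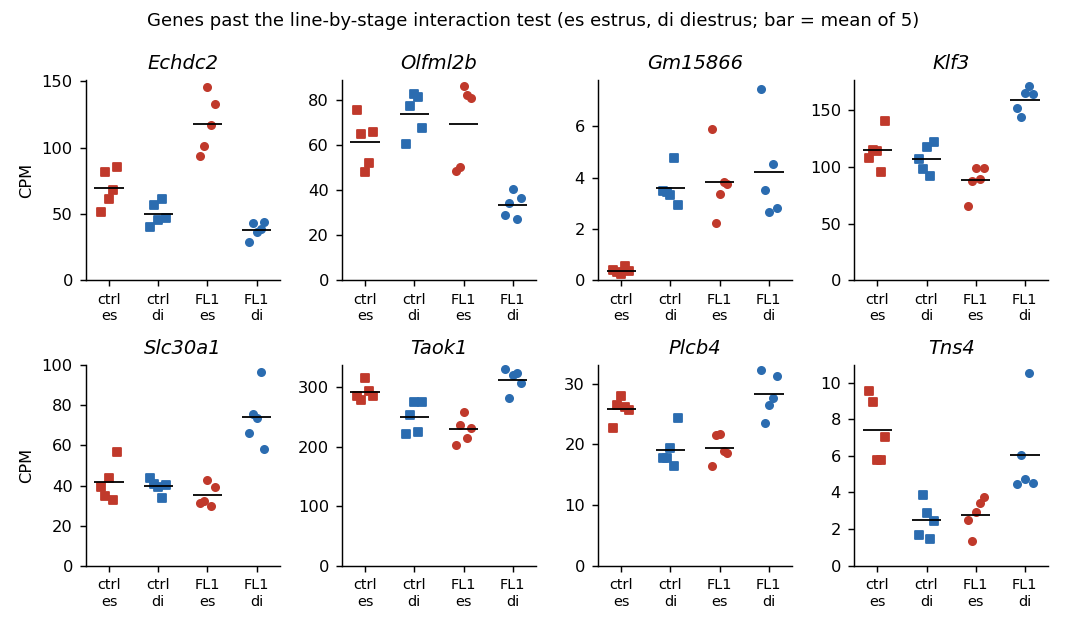
CPM of the 8 genes past the line-by-stage interaction test, with squares for ctrl, circles for FL1, red for estrus, blue for diestrus and a bar at the mean of each group of 5. In Slc30a1 and Klf3 the FL1 diestrus libraries lie highest, and in Gm15866 the ctrl estrus libraries lie lowest, at 0.383 CPM on average.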

How the data were processed

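RNA of whole ovaries was sequenced from the 3' end of transcripts (QuantSeq forward, HiSeq 2500), 1 library per mouse. Raw counts per Ensembl gene were deposited by the authors, made from trimmed reads after alignment to GRCm38 with STAR. The labels also name Cuffdiff. The counting tool and its strand setting are not given in the sources used here, so reads of overlapping genes and of antisense partners cannot be told apart. Of 166 genes checked for this, 75 overlap another gene. Of the same genes, 16 share at least 50 words of 31 bases in their last 300 bases with another gene. Some genes named above, such as Agtr2, Fabp4, Ccl6, H2-Ab1 and Cd74, were not among those checked. Groups were taken from the titles, since the source label reads FL1 for all samples. Symbols came from GENCODE M21, which lacks 29 of 54838 identifiers, and promoters from RefSeq.

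From the deposited counts, edgeR 4.0.16 (R 4.3.3) was run with TMM factors, filterByExpr at a minimum count of 10 and the quasi-likelihood test, with p-values adjusted by Benjamini-Hochberg over all tested genes (threshold 0.05). FL1 and ctrl stages were fitted separately and the interaction in 1 fit of 20 libraries. Estrus is always set against diestrus. The SE of a log2FC was not taken from the fit but computed as its absolute value divided by the square root of the test's F value. CPM use TMM factors over all 20 libraries, and figures were drawn with matplotlib 3.10.9. Totals of 5991223 to 9432952 counts set the precision of low genes, and 3 counts were taken as the floor. Replicates differed beyond sampling noise (chi-square per gene 6.03 to 23.1 between libraries of a stage). Genes were named if they were among the 12 protein-coding genes of smallest p per direction, the 8 largest log2FC per direction without overlap and at least 10 CPM, members of the gene lists, or past the interaction test. Members and lists were chosen with earlier results of these data known. A few members of the lists, counted in them, are not reported here by name. Alternatives were RLE size factors, other filters, DESeq2 1.42.0, voom with sample weights (limma 3.58.1), a replicate block, 1 fit of all libraries and leaving out each library.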

Additional observations from a re-analysis of the deposited data

Results flagged for a closer look

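In 14 of 332 groups of 5 libraries, 1 library stood apart by Dixon's criterion, about the 1 in 20 that chance gives. Diestrus replicate 1 was high in Nts (1.00 CPM against 0 to 0.284 in the others) and Bhlhe41 (30.8 against 22.9 to 24.9) and low in Vcan (63.1 against 71.1 to 71.9). Diestrus replicate 2 was low in Lhcgr (342 CPM against 595 to 697) and Kdr (125 against 172 to 189) and high in Edn2 (6.55 against 0.142 to 1.00) and Hspa1b (103 against 43.2 to 59.5). Diestrus replicate 4 was low in Npc2 (860.1 CPM against 901 to 917) and high in Tns4 (10.5 against 4.45 to 6.03). Estrus replicate 3 was high in Hsd17b7 (128 CPM against 40.2 to 45.1) and Insr (34.2 against 26.6 to 28.4). Estrus replicate 1 was high in Gdf9 (145 CPM against 50.005 to 76.8), and estrus replicate 5 was high in Insig1 (14.5 against 7.77 to 9.32) and low in Apln (27.9 against 42.3 to 47.6).

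In 8 genes the stage difference itself differed between the lines by edgeR's interaction test, given as FL1 minus ctrl on the log2 scale. It was positive in Echdc2 (1.15), Olfml2b (1.33) and Gm15866 (2.98). It was negative in Klf3 (-0.94), Slc30a1 (-1.14), Taok1 (-0.67), Plcb4 (-0.97) and Tns4 (-2.68).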

How the results depend on the processing

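The number of genes called in FL1 was within 1.5 times of 2123 under all alternatives run: 2111 with RLE size factors, 2300 without a filter, 2422 with DESeq2, 2320 with voom, 1520 in 1 fit of all 20 libraries and 1582 to 2316 (739 to 1099 stronger, 843 to 1217 weaker) without 1 library. The distance difference, 19.2, ranged from 18.3 to 20.98 without 1 library and was 14.7 with at least 10 counts in every library and 14.5 without a filter. Of the 166 checked genes, 158 were called. Of these, 141 were called in all 10 fits that leave out 1 library and 132 under all other alternatives of processing. Other genes named above, such as Agtr2, Fabp4 and Ccl6, are not part of these counts. With a replicate block FL1 gave 2020 calls, 1848 of them shared. Same-numbered libraries correlated at -0.075 to 0.099, so the numbers were not taken as pairs, and only replicates 1 and 3 correlated best with their own number in both directions. The ctrl calls, 380 (238 stronger, 142 weaker), were less stable: 238 weaker without a filter, 771 (444, 327) with DESeq2, 655 (363, 292) with voom, 155 stronger with the block, 909 (533, 376) in 1 fit of all libraries and 176 to 516 (115 to 283, 61 to 233) without 1 library. They numbered 243 without ctrl estrus replicate 2, 189 without 4, and 235, 223 and 176 without ctrl diestrus replicates 2, 3 and 4. The 8 interaction calls became 17 (6 positive, 11 negative) without a filter, 148 (50, 98) with DESeq2, 31 (15, 16) with voom, 8 negative with the block and 0 to 15 (0 to 4, 0 to 11) without 1 library. They were 0 by edgeR without ctrl estrus replicate 3, ctrl diestrus replicate 4, FL1 estrus replicate 4 or 5 or FL1 diestrus replicate 3 or 4, with 1689, 1491, 1585, 1492, 1477 and 1452 genes at an unadjusted p under 0.05. Signs turned in Gm15866 (-0.35 to 0.16 with 1 library left out, 0.16 without FL1 diestrus replicate 1) and Zp3 (-0.15 with estrus replicates 3 to 5 only, chosen after seeing the data), neither called. The causes were not tested. Genes of few counts, among them Ptgs2, Has2, Areg and Ereg, could not be tested at this depth, and why they were low was not tested.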
